A study of Mus musculus with 6 samples.

Results

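The genes described here are 10 genes of lymphocyte-mediated killing, chosen by name: the death ligand gene Fasl, the pore gene Prf1, the granzyme genes Gzma, Gzmb, Gzmc, Gzmk and Gzmm, the granule protease gene Ctsw, the granule membrane protein gene Nkg7 and the inhibitor gene Serpinb9. They are 10 of 23366 genes named in the deposited count table, and all 10 have a row. The tested cells were Mdr1+ CD4+ effector T cells, which hold little of the dye rhodamine 123 (Rh123) because the transporter Mdr1 pumps it out, and the comparison cells were Mdr1- CD4+ effector T cells, which hold much of it. Both fractions came from mesenteric lymph nodes; the hosts were Rag deficient, which leaves them unable to make lymphocytes with rearranged receptors, and had received T cells 6 weeks earlier. All libraries carry the label FVB/N for strain background, each fraction has 3 libraries, and Mdr1+ and Mdr1- name a sort on dye and not an engineered allele. The labels do not say which Rag gene was deleted, how many mice gave each library or whether mice were pooled, so the p-values cover the spread among these libraries, which may be technical.

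Cytotoxic lymphocytes kill by either of a pair of routes. In the first, granules release perforin, which opens the target membrane, and granzymes, serine proteases that then enter the target and cleave its proteins. In the second, Fas ligand on the killer's surface binds the receptor Fas on the target and starts the caspase cascade through the adaptor Fadd. CD8 T cells and NK cells are best known for these routes, and a part of the CD4 T cells in chronic inflammation, the gut included, also uses them.

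The libraries held 2220691 to 20771456 counts in genes, so 3 counts correspond to between 0.140 and 1.42 CPM (counts scaled by library size). The Mdr1+ library of replicate 3 was the shallowest and stood apart on the first principal component (59.2% of the variance). Abcb1a, the main gene of the sorted transporter, was at 177, 132 and 178 CPM in the Mdr1+ libraries of replicates 1, 2 and 3, against 72.9, 42.0 and 73.4 CPM in the Mdr1- libraries. Abcb1b, the other mouse gene of the transporter, overlapped between the groups and was called with the block only (log2 fold change 0.75 ± 0.48, adjusted p = 0.624; with the block 0.74 ± 0.12, adjusted p = 0.00457). Mki67, a marker of dividing cells, fell in Mdr1+ cells, with averages of 212 ± 31.8 CPM over the Mdr1+ libraries and 1231 ± 336 CPM over the Mdr1- libraries (SD, n = 3 per group; adjusted p = 0.00366), and the part of cell division in the member levels was not tested. The summed level of 11 CD4 T cell markers was 6948 to 8119 CPM in Mdr1+ and 6965 to 7829 CPM in Mdr1- libraries, and Cd8a and Cd8b1 together reached at most 1.495 CPM in Mdr1+ and 2.21 CPM in Mdr1- libraries.

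The sequence just upstream of a gene's start is where factors that control it can bind, and 4 upstream sequences are shown: Fasl, Gzmk, Gzma and Gzmb. They were picked with their values known. Fasl and Gzmk were higher in every Mdr1+ library, Gzma was lower in every one, and Gzmb overlapped between the groups. Prf1, also higher in every Mdr1+ library, is not shown. Each is the 250 bases before the start that RefSeq gives on GRCm38.p6, 5′ to 3′ on the gene's own strand. Capitals mark matches on either strand to GGTGTG (the core bound by T-box factors such as Eomes and T-bet), TGTGGT (RUNX), GGAAAA (NFAT) and TGANTCA (AP-1), and no match overlapped another.
Fasl, chr1:161788496-161788745, minus strand: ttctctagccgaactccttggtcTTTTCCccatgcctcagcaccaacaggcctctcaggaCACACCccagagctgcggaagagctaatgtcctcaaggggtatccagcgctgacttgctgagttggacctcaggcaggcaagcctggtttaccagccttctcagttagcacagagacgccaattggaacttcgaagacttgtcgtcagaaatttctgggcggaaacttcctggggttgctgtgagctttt
Gzmk, chr13:113180966-113181215, minus strand: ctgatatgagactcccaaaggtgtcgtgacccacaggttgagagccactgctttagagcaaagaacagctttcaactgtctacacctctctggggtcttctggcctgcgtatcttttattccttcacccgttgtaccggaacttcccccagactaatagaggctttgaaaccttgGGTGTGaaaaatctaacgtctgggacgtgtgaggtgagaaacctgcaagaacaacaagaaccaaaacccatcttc
Gzma, chr13:113100982-113101231, minus strand: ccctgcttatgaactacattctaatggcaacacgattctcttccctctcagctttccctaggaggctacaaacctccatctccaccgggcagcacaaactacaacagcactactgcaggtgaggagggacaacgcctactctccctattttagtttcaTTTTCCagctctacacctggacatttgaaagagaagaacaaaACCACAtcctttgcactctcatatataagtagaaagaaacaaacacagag
Gzmb, chr14:56262335-56262584, minus strand: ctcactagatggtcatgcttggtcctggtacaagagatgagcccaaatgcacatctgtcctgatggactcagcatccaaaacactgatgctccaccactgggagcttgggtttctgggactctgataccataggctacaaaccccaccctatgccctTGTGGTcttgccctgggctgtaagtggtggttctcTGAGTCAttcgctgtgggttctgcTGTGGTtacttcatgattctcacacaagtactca
Fasl had 1 T-box match, which began 190 bases before the start, and 1 NFAT match. Gzmk had 1 T-box match, which began 75 bases before the start. Gzma had no T-box match and had 1 RUNX and 1 NFAT match. Gzmb had no T-box match, 2 RUNX matches and 1 AP-1 match. The other members with an entry were mixed: Prf1, which rose when libraries were paired by number, had no T-box match, nor did Gzmc, while Gzmm, which passed in neither fit, had one at one of its starts, and Nkg7 and Serpinb9 had one each. The table holds promoters for 9 of the 10 genes, all but Ctsw, and with every listed start counted 5 of the 9 had a T-box match, 6 a RUNX match, 4 an NFAT match and 1 an AP-1 match. Over all 32851 upstream windows of that length 16.3% held the T-box letters, 14.0% the RUNX letters, 20.4% the NFAT letters and 6.75% the AP-1 letters. For Gzmk, Gzmb, Prf1 and Gzmc the bases just after the listed start were not found in a GENCODE transcript of the gene. Their windows may not end at the start in use, and distances are to the RefSeq start only. A match is a description of letters and not a binding site.

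The comparison addresses whether the killing machinery is transcribed differently in cells that pump the dye out and cells that keep it. Fasl rose in Mdr1+ cells, by 2.81-fold, and was the 1 of the 10 genes that passed the test across all genes (edgeR's quasi-likelihood test, Benjamini-Hochberg adjusted p under 0.05). Gzmb, the granzyme with the highest level, did not differ detectably. When libraries of the same replicate number were compared with each other, by adding that number to the fit as a block, Prf1, Gzmk, Ctsw, Nkg7 and Serpinb9 also rose and Gzma fell.

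Without the block 1 of 9 tested members was higher in Mdr1+ cells, where 0.275% of all 10897 tested genes were higher, and 0 members were lower, where 1.95% of all genes were. At an unadjusted p under 0.05, 5 of the 9 were higher, against 4.63% of all tested genes, and 1 was lower, against 7.22%. DESeq2 was run without the block and gave all 10 members an adjusted p. It called 3 higher (Fasl, Prf1 and Ctsw), against 0.860% of 11970 genes, and 1 lower (Gzma), against 3.18%. With the block 6 of 9 were higher, against 5.81% of all tested genes, and 1 was lower, against 6.57%. The median log2 fold change of the 9 was 0.70, and that of all tested genes 0.04. Gzmc was removed by the filter on low counts in both edgeR fits. The groups did not overlap in 5 of the 9 tested members: Fasl, Prf1, Gzmk and Ctsw were higher in every Mdr1+ library, where 8.71% of all tested genes had that pattern, and Gzma was lower in every one, as were 11.0% of all tested genes. Such counts describe these members, which were named with results of the same libraries known.

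**Figure D1:**
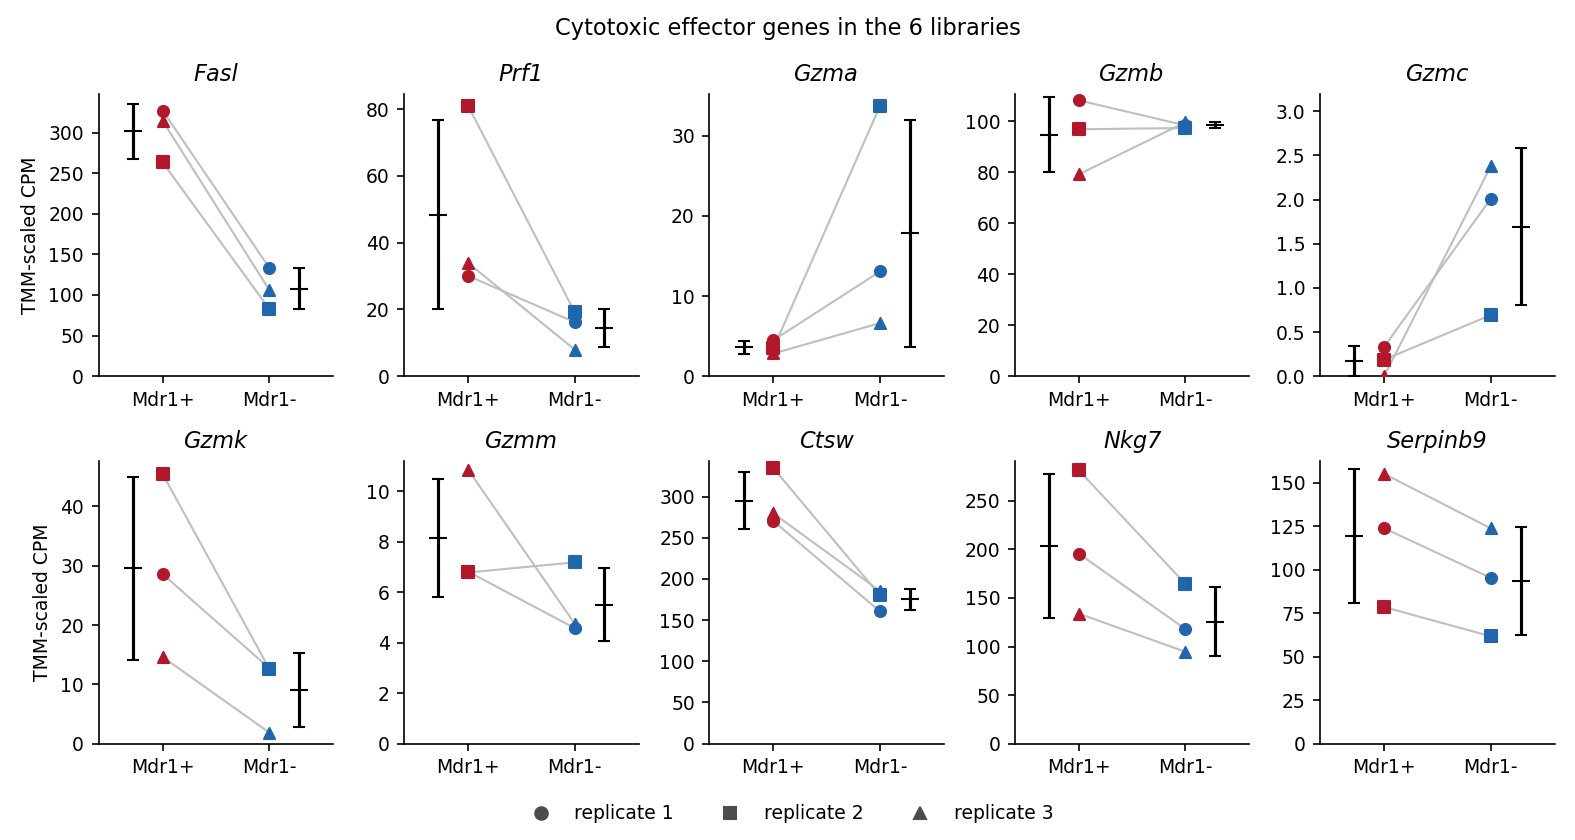
TMM-scaled CPM ( y axes linear from 0, one scale per gene) of the 10 genes in Mdr1+ (red, left) and Mdr1- (blue, right) libraries; symbols are replicates, grey lines join libraries of the same number, and black marks show group means with SD bars (n = 3). Fasl, Prf1, Gzmk and Ctsw have every Mdr1+ library above every Mdr1- library, Gzma and Gzmc have the reverse, and the Gzmb levels overlap.

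The death ligand gene stood higher in Mdr1+ cells in every pair of libraries. Fasl was at 327, 263 and 314.5 CPM in the Mdr1+ libraries of replicates 1, 2 and 3, against 134, 82.8 and 106 CPM in the Mdr1- libraries. The lowest Mdr1+ library lay above the highest Mdr1- library, and both groups had their lowest level in replicate 2. Fasl averaged 302 ± 33.8 CPM over the Mdr1+ libraries, against 108 ± 25.4 CPM over the Mdr1- libraries (SD, n = 3 per group), which gave a log2 fold change of 1.49 ± 0.21 (SE; adjusted p = 0.00815), or 2.81-fold with a 95% interval of 2.02 to 3.90. Within replicate numbers the log2 ratios were 1.29, 1.67 and 1.57. A two-sided exact permutation test on the CPM values gave p = 0.1, the smallest that 3 against 3 allows. The call was lost without the Mdr1- library of replicate 3 (1.48 ± 0.27, adjusted p = 0.0657), while the fold change hardly moved. The same held without both libraries of replicate 3 (1.44 ± 0.30, adjusted p = 0.21). Calls over all genes fell as well: without that Mdr1- library 1 gene was higher and 75 lower, against 30 and 212 with all libraries. That library also held the most myeloid transcripts, and their part in the call was not tested. With the block the log2 fold change of Fasl was 1.51 ± 0.10 (adjusted p = 8.37e-05).

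Perforin transcripts were higher in every Mdr1+ library but by uneven amounts. Prf1, which encodes the pore-forming protein of the granules, was at 30.1, 81.0 and 34.0 CPM in Mdr1+ libraries, against 16.2, 19.2 and 7.98 CPM in Mdr1- libraries. The Mdr1+ library of replicate 2, the deepest of the 6, held more than the other 5, and its 1734 counts leave a counting interval of 77.3 to 85.0 CPM. The groups did not overlap, and averages of 48.4 ± 28.4 CPM over the Mdr1+ libraries and 14.4 ± 5.80 CPM over the Mdr1- libraries (SD, n = 3 per group) gave a log2 fold change of 1.75 ± 0.44. Unblocked, it missed the threshold (adjusted p = 0.102), and with the block it passed at 1.67 ± 0.25 (adjusted p = 0.00381). Without the Mdr1+ library of replicate 2 the unblocked value was 1.13 ± 0.37 (adjusted p = 0.243).

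The granzymes differed from each other in direction. Gzmb encodes the protease that cleaves after aspartate and activates caspases. It was at 108, 96.9 and 79.2 CPM in Mdr1+ libraries, against 98.4, 97.4 and 99.7 CPM in Mdr1- libraries. The Mdr1- libraries lay close together, and the Mdr1+ libraries lay on both sides of them. Its log2 fold change was -0.05 ± 0.17 (adjusted p = 0.946), and the 95% interval of the fold was 0.742 to 1.26, or 0.802 to 1.16 with the block. The sign of this value was positive in fits without replicate 3, so no direction is given.

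Gzmk and Gzma are neighbours on chromosome 13, with no protein-coding gene between them in RefSeq, and both encode tryptase-like granzymes that cleave after basic residues. Gzmk was at 28.6, 45.5 and 14.6 CPM in Mdr1+ libraries, against 12.7, 12.6 and 1.87 CPM in Mdr1- libraries. Every Mdr1+ library was higher than the 3 Mdr1- libraries, and in both groups replicate 3 was the lowest. The log2 ratios within replicate numbers were 1.17, 1.85 and 2.97, and the last rests on 31 counts in the Mdr1+ and 11 counts in the Mdr1- library. The log2 fold change of 1.71 ± 0.61 missed the threshold when unblocked (adjusted p = 0.283), and Gzmk rose with the block (1.77 ± 0.29, adjusted p = 0.00538).

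Gzma went the other way. It was at 4.49, 3.46 and 2.83 CPM in Mdr1+ libraries, against 13.1, 33.7 and 6.62 CPM in Mdr1- libraries. The Mdr1+ libraries were all low and close together, and the Mdr1- libraries were spread widely, with replicate 2 the highest. In the Mdr1+ library of replicate 3 the level rests on 6 counts (counting interval 1.04 to 6.16 CPM). The unblocked log2 fold change of Gzma, -2.29 ± 0.58, missed the threshold (adjusted p = 0.104), and Gzma fell with the block (-2.30 ± 0.43, adjusted p = 0.0105). Without the Mdr1- library of replicate 2 the unblocked value was -1.43 ± 0.52 (adjusted p = 0.389).

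Gzmm, which encodes the granzyme that prefers methionine, was at 6.81, 6.78 and 10.8 CPM in Mdr1+ libraries, against 4.58, 7.18 and 4.75 CPM in Mdr1- libraries. The groups overlapped, and it did not pass in either fit (log2 fold change 0.51 ± 0.39, adjusted p = 0.682; with the block 0.50 ± 0.37, adjusted p = 0.435). Gzmc, next to Gzmb in the granzyme cluster of chromosome 14, had 2, 4 and 0 counts in Mdr1+ libraries, against 18, 8 and 14 counts in Mdr1- libraries. That is 6 counts in all in Mdr1+ and 40 in Mdr1- libraries, or 0.332, 0.187 and 0 CPM against 2.01, 0.692 and 2.38 CPM. The groups did not overlap, but the 0 in the shallowest library allows up to 1.42 CPM, which is above 1 of the Mdr1- values. DESeq2, which kept Gzmc, gave an adjusted p of 0.144, and the edgeR fits with 1 library left out that kept it gave 0.195 to 0.398. Of the transcript's 50-base stretches 4.14% also occur in Gzmd, Gzme or Gzmg, and the other granzyme genes described here share none with another gene.

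Because counts of these genes come from the same library, their ratios do not depend on how libraries are scaled. There were 6.37, 13.2 and 5.17 Gzmk counts per Gzma count in Mdr1+ libraries, against 0.974, 0.374 and 0.282 in Mdr1- libraries. Gzmk thus outnumbered Gzma in each Mdr1+ library and was the rarer of the pair in the Mdr1- libraries of replicates 2 and 3, while replicate 1, with 114 Gzmk and 117 Gzma counts, gives no order. There were 3.02, 2.72 and 3.97 Fasl counts per Gzmb count in Mdr1+ libraries, against 1.36, 0.850 and 1.06 in Mdr1- libraries. The ratios of Prf1 and Ctsw to Gzmb also had no overlap between the groups, with means of 0.514 ± 0.289 and 3.16 ± 0.576 in Mdr1+ and 0.147 ± 0.060 and 1.78 ± 0.129 in Mdr1- libraries (SD, n = 3 per group). The ratio of Nkg7 to Gzmb was 1.81, 2.90 and 1.69 in Mdr1+ libraries, against 1.20, 1.69 and 0.949 in Mdr1- libraries, so that the lowest Mdr1+ and the highest Mdr1- value were level. The ratio of Gzmb to Serpinb9 overlapped. These 6 ratios were chosen after the values were seen and were not tested.

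As a share of the counts of the 5 granzyme genes, Gzmk made up 20.9% ± 8.20 in Mdr1+ and 6.56% ± 4.33 in Mdr1- libraries, and Gzma 2.64% ± 0.379 in Mdr1+ and 12.6% ± 8.56 in Mdr1- libraries (SD, n = 3 per group). Gzmb made up most of the counts in both, 70.0% ± 5.72 in Mdr1+ and 75.3% ± 11.1 in Mdr1- libraries. All 5 together were at 148.5, 152.8 and 107.5 CPM in Mdr1+ libraries, against 130.8, 151.7 and 115.3 CPM in Mdr1- libraries, and these totals overlapped. In the Mdr1- library of replicate 1 the Gzmk and Gzma shares were level within counting error, at 9.73% (exact 95% interval 8.09 to 11.6) and 9.98% (8.33 to 11.8).

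**Figure D2:**
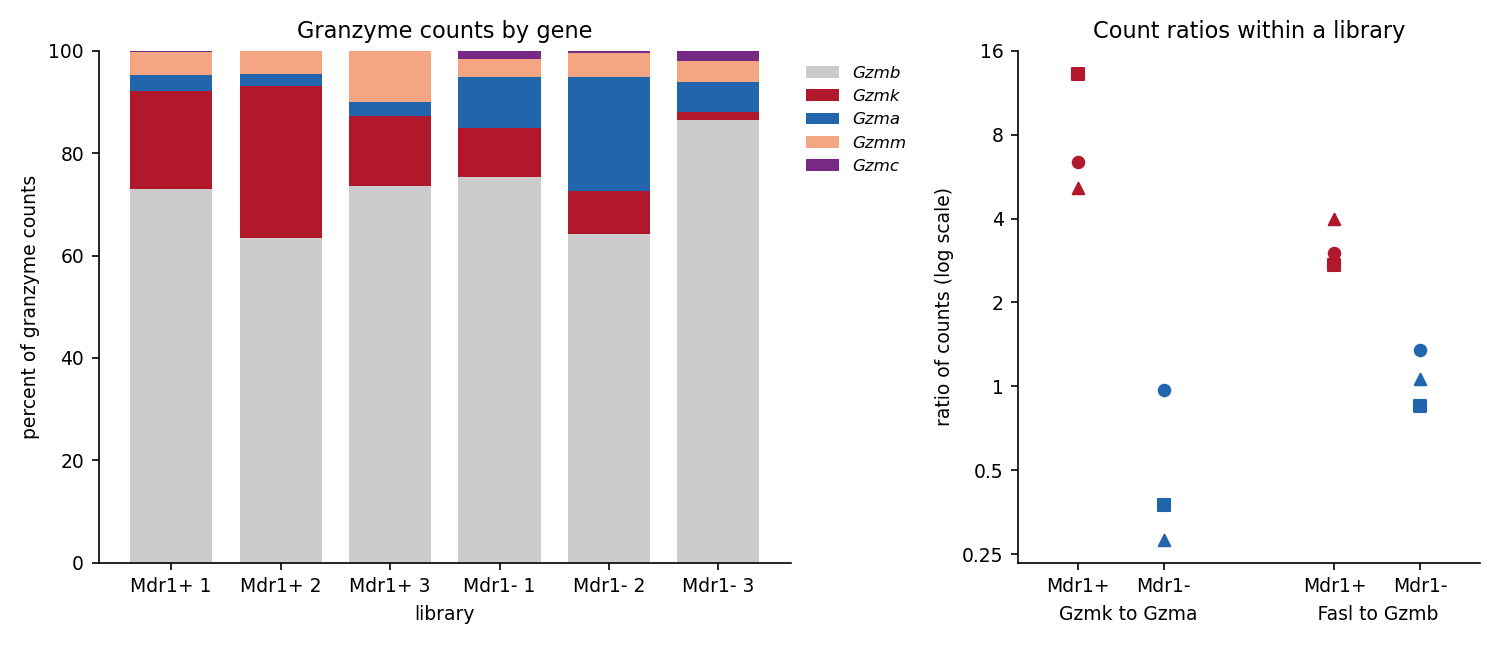
Left, share of granzyme counts (y axis, percent, stacked by gene) in each library, with the Mdr1+ libraries on the left; right, ratios of counts within a library on a log axis, with Mdr1+ in red and Mdr1- in blue and a symbol per replicate number. Gzmk takes 13.6% to 29.8% in Mdr1+ and 1.62% to 9.73% in Mdr1- libraries, and both ratios shown have no overlap between groups.

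Ctsw and Nkg7 are expressed mainly in cytotoxic lymphocytes. Ctsw, which encodes the cysteine protease cathepsin W, was at 270, 334.5 and 280 CPM in Mdr1+ libraries, against 160.5, 180 and 185 CPM in Mdr1- libraries. All 3 Mdr1+ libraries were higher than all 3 Mdr1- libraries, and the spread within each group was small. Ctsw averaged 295 ± 34.7 CPM over the Mdr1+ libraries, against 175 ± 13.1 CPM over the Mdr1- libraries (SD, n = 3 per group), and its log2 fold change of 0.75 ± 0.17 missed the threshold when unblocked (adjusted p = 0.0548). With the block it passed (0.75 ± 0.09, adjusted p = 0.00131). In the GENCODE annotation 9 exonic bases of Ctsw overlap the oppositely oriented gene Fibp, and the exons of the other 9 genes overlap no other gene.

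Nkg7, which encodes a granule membrane protein needed in mice for efficient granule release, was at 196, 281 and 134 CPM in Mdr1+ libraries, against 118, 164.5 and 94.6 CPM in Mdr1- libraries. The groups overlapped, and in both replicate 2 was highest and replicate 3 lowest. Within numbers the log2 ratios were 0.73, 0.78 and 0.50, and the block narrowed the standard error to 0.10, against 0.29 without it. Nkg7 had a log2 fold change of 0.68 with the block (adjusted p = 0.00257) and of 0.70 without it (adjusted p = 0.383).

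Serpinb9 encodes the serpin that inhibits granzyme B and protects the killer cell from its own protease. It was at 124, 78.6 and 155 CPM in Mdr1+ libraries, against 95.3, 61.7 and 124 CPM in Mdr1- libraries. The groups overlapped, and replicate 3 was highest and replicate 2 lowest in both, the reverse of Nkg7. Within numbers the log2 ratios were 0.38, 0.35 and 0.33, and Serpinb9 passed with the block only (0.35 ± 0.10, adjusted p = 0.0458; without it 0.34 ± 0.31, adjusted p = 0.734). This was the smallest of the member differences that passed, 1.10- to 1.48-fold at 95% confidence.

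**Figure D3:**
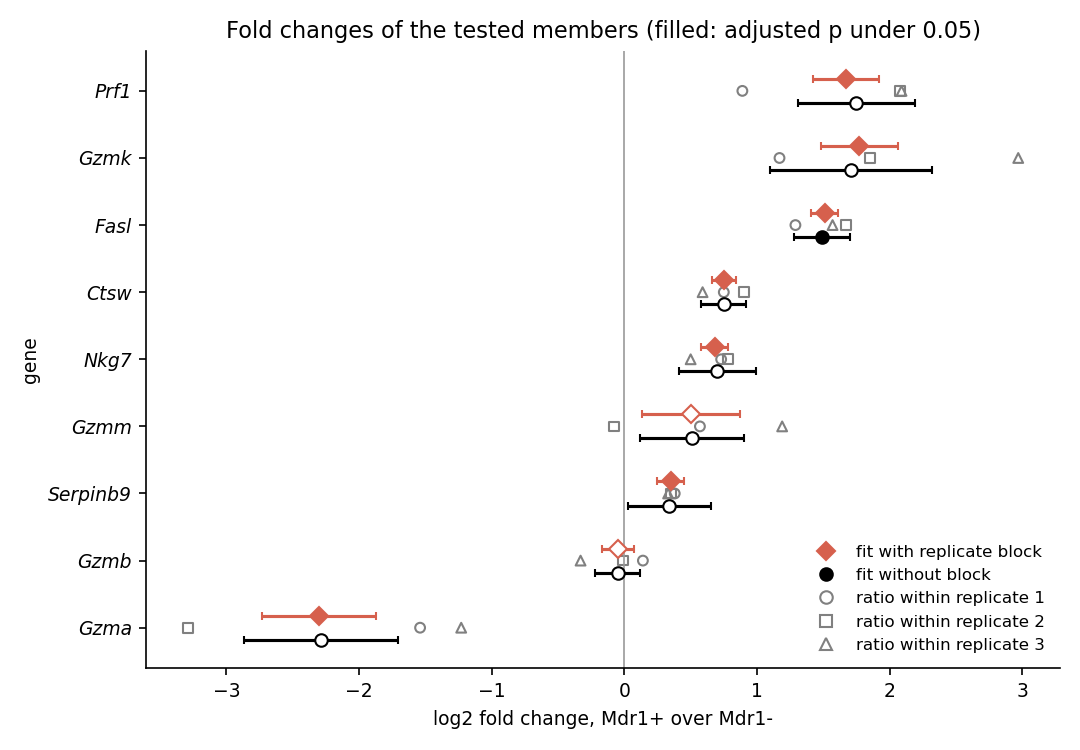
Log2 fold change of Mdr1+ over Mdr1- (x axis) of the 9 tested genes (y axis), fitted with (diamonds) and without (circles) the replicate number as a block; bars are standard errors, filled symbols have an adjusted p under 0.05, and grey open symbols are ratios within a replicate number. Fasl is filled in both fits, Prf1, Gzmk, Ctsw, Nkg7, Serpinb9 and Gzma in the fit with the block, and Gzmb and Gzmm in neither.

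Divided by the exonic length of each gene in GENCODE M21, which may differ from the annotation used for counting, levels can be compared between genes. In Mdr1+ cells the order of CPM per kilobase was Nkg7 (223 ± 81.0), Ctsw (156 ± 18.4), Fasl (156 ± 17.5), Gzmb (66.0 ± 10.2), Serpinb9 (34.1 ± 11.03), Gzmk (21.3 ± 11.1), Prf1 (18.7 ± 10.98), Gzmm (5.53 ± 1.59), Gzma (3.57 ± 0.831) and Gzmc (0.194 ± 0.186; SD, n = 3 per group). The ranges of Nkg7, Ctsw and Fasl overlapped, as did those of Serpinb9, Gzmk and Prf1. In Mdr1- cells the order began with Nkg7 (138 ± 39.0) and Ctsw (92.9 ± 6.93), Gzmb (68.6 ± 0.774) stood above Fasl (55.5 ± 13.1), whose highest library reached 68.9, and Gzma (17.7 ± 14.1) stood above Gzmk (6.53 ± 4.49) and Prf1 (5.59 ± 2.25). The range of Gzma in Mdr1- cells overlapped those of Serpinb9, Gzmk and Prf1.

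Of the other mouse granzyme genes, Gzmd, Gzme, Gzmg and Gzmn had 0 counts in every library, and Gzmf had 0 counts in Mdr1+ libraries and at most 0.432 CPM in Mdr1- libraries. Reads without a unique position were not counted in genes, so a 0 in every library need not mean that the transcript was absent. Of 9 tested genes of the granule matrix, processing and inhibitors 0 passed without the block in edgeR (0 higher and 1 lower at an unadjusted p under 0.05, and DESeq2 called 1 lower), with a median log2 fold change of -0.18. For this and the lists that follow, 5.81% of all tested genes were higher and 6.57% lower with the block. The shares were 4.63% and 7.22% at an unadjusted p under 0.05 without it, and 0.860% and 3.18% in DESeq2. With the block Serpinb9 rose, as given above, and Serpinb6b, a serpin gene of the same clade, fell (-0.79 ± 0.14 on the log2 scale, adjusted p = 0.00853), at 60.6, 39.0 and 45.7 CPM in Mdr1+ libraries, against 83.2, 75.6 and 90.3 CPM in Mdr1- libraries. Ctsc, the cathepsin that activates granzymes, had a log2 fold change of -0.19 ± 0.21, and Srgn, the proteoglycan that packs them, had one of 0.10 ± 0.38.

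The median over genes of granule release was -0.08 on the log2 scale. Of 16 tested, 0 passed without the block (1 higher and 1 lower at an unadjusted p under 0.05, and DESeq2 called 1 higher). With it 1 rose and 2 fell, where 5.81% and 6.57% of all tested genes did. Lyst, a regulator of the size of lysosome-related granules, rose (0.60 ± 0.09, adjusted p = 0.00396). Stx11, a syntaxin needed for granule fusion, fell (-0.77 ± 0.10, adjusted p = 0.0017), at 93.4, 54.7 and 93.9 CPM in Mdr1+ libraries, against 169, 91.3 and 152 CPM in Mdr1- libraries. Coro1a, an actin regulator gene, fell too (-0.47 ± 0.09, adjusted p = 0.00976). Rab27a and Unc13d, which dock and prime the granules, had log2 fold changes of -0.14 ± 0.15 and -0.27 ± 0.20.

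On the side that receives Fas ligand, Fas had a log2 fold change of 0.02 ± 0.31 and Fadd one of 0.10 ± 0.33. Of 14 tested genes of the Fas pathway Bcl2 rose without the block (averages of 585 ± 84.5 CPM over the Mdr1+ libraries and 245 ± 23.4 CPM over the Mdr1- libraries; SD, n = 3 per group; adjusted p = 0.00836, or 0.0744 without the Mdr1- library of replicate 3), and 0 fell (2 at an unadjusted p under 0.05, and 0 by DESeq2). With the block Bcl2 and Bcl2l11 rose, a survival gene and the gene of the death-promoting protein Bim, and Bak1 fell, the gene of a pore protein of the mitochondrial membrane (log2 fold changes 1.25, 0.74 and -0.68). The median of the list was 0.03.

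Of 10 tested genes of other death ligands and effector cytokines, the chemokine gene Ccl5 rose in both fits (log2 fold change 1.68 ± 0.23, adjusted p = 0.00714, or 0.0544 without the Mdr1- library of replicate 3), and 0 fell in either (0 at an unadjusted p under 0.05, and 0 by DESeq2). Tnfsf10, the ligand gene of the TRAIL receptors, had a log2 fold change of 0.27 ± 0.19, Tnf one of -0.39 ± 0.32 and Ifng one of 0.17 ± 0.31.

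Of 20 tested regulators of the cytotoxic program Eomes, a T-box factor that activates Prf1 in CD8 T cells, rose without the block. It was at 123, 166 and 66.0 CPM in Mdr1+ libraries, against 37.8, 31.7 and 22.8 CPM in Mdr1- libraries, with no overlap (adjusted p = 0.0193, or 0.116 without the Mdr1- library of replicate 3). None fell without the block (0 of 20 in edgeR, 1 at an unadjusted p under 0.05, and 1 by DESeq2). With the block Hopx (0.78), Runx3 (0.50), a factor of CD8 T cell fate, and Stat4 (0.41) rose as well. Egr2 (-1.03) and Egr3 (-1.01), which are induced by T cell receptor signals, fell with the block. Tbx21, the gene of T-bet, did not pass in either fit (log2 fold change 0.29 ± 0.15).

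**Figure D4:**
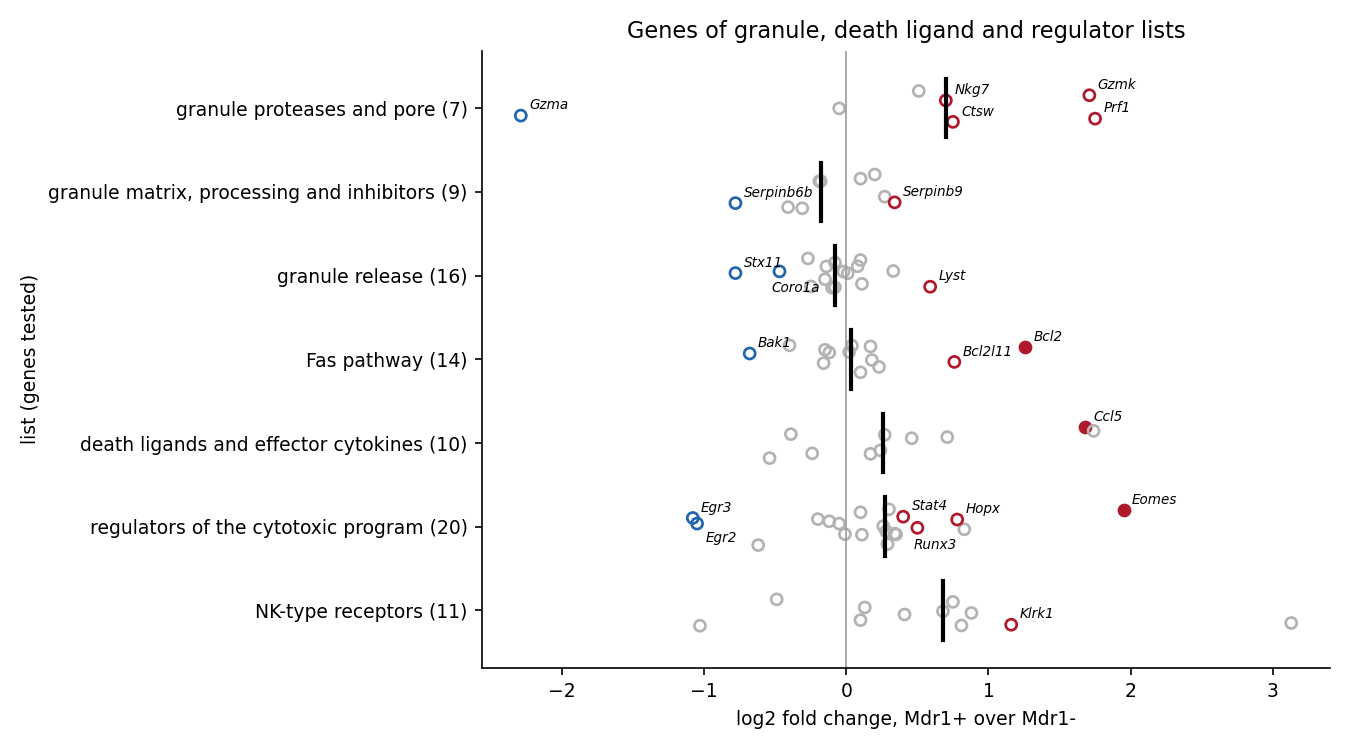
Tested genes of 7 lists (y axis, number tested in parentheses; Fasl is in none of them) by its log2 fold change, Mdr1+ over Mdr1- (x axis); vertical position within a list is arbitrary, black lines are list medians, filled symbols passed without the block, coloured outlines passed with it (red higher, blue lower), and grey ones passed in neither; not every tested gene is drawn. The granule proteases and pore have a median of 0.70, against -0.18 for granule matrix, processing and inhibitors and -0.08 for granule release. All 7 tested genes of the list of granule proteases and pore are members, so its median is not separate from the member results.

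Among 11 tested NK-type receptor genes 0 passed without the block in edgeR (5 higher and 1 lower at an unadjusted p under 0.05, and DESeq2 called 2 higher), and with the block Klrk1, which encodes the activating receptor NKG2D, rose (1.17 ± 0.29, adjusted p = 0.0333). NK cells are made by Rag-deficient hosts and carry the same granule genes, so their markers were followed. The summed level of 11 NK cell markers was 17.2 to 30.6 CPM in Mdr1+ and 9.25 to 15.6 CPM in Mdr1- libraries, with no overlap, and Klrb1c gave 20.6, 14.96 and 20.8 CPM of it in Mdr1+ and 14.6, 8.13 and 8.999 CPM in Mdr1- libraries. Klre1, from the same marker list, had 1.66, 1.26 and 6.60 CPM in Mdr1+ libraries, against 0.558, 0.259 and 0 CPM in Mdr1- libraries. The groups did not overlap for Klre1, which edgeR called neither without the block (adjusted p = 0.233) nor with it (adjusted p = 0.0897) and DESeq2 called higher (adjusted p = 0.0376). Other genes of that list overlapped between the groups. Tyrobp was at 0, 0.0935 and 2.83 CPM in Mdr1+ libraries, against 0.112, 0.259 and 1.87 CPM in Mdr1- libraries. Fcer1g was at 0.332, 0 and 0 CPM in Mdr1+ libraries, against 0.112, 0 and 3.23 CPM in Mdr1- libraries. Klri2 and Klrc2 overlapped as well. Klra4, Klra7, Klra8 and Klra9 were at 0 in every library, which need not mean absence, since reads without a unique position were not counted. Ncr1, the defining NK receptor gene, had no count in 5 libraries, and the Mdr1+ library of replicate 2 held 0.140 CPM of it. The part of NK cells in the levels of the granule genes was not tested.

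Markers of other cells were followed too. The sums of dendritic cell and B cell markers did not overlap between the groups, and those of the other lists given here did. Of 8 markers of gamma-delta T cells and innate lymphoid cells 5 are in the table, and their sum was 64.8 to 173 CPM in Mdr1+ and 164 to 312 CPM in Mdr1- libraries; Il1r1, which Th17 cells also express, made up most of it in every library. The 9 myeloid markers summed to 0.997 to 6.60 CPM in Mdr1+ and 1.99 to 85.4 CPM in Mdr1- libraries, the highest in replicate 3. The 7 dendritic cell markers summed to 21.3 to 44.8 CPM in Mdr1+ and 54.0 to 82.7 CPM in Mdr1- libraries, the 5 B cell markers to 10.97 to 22.8 CPM in Mdr1+ and 6.36 to 10.8 CPM in Mdr1- libraries, and the 5 mast cell and basophil markers to at most 0.166 CPM in Mdr1+ and 0.0865 CPM in Mdr1- libraries. In such bulk libraries a change in the share of cells that carry a transcript and a change in its amount per cell cannot be told apart.

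Over the 6 libraries, the genes with the profile most like that of Fasl were Atp8b4, Abcb1a, Il7r, Rhoq and Trpc1, out of 9732 genes at an average log2 CPM of at least 2. Their centred log2 profiles differed from that of Fasl by a root mean square of 0.11, 0.15, 0.16, 0.21 and 0.21. Abcb1a, the gene of the transporter that the sort was made on, was thus the second nearest, with a log2 fold change of 1.37 ± 0.25 beside the 1.49 ± 0.21 of Fasl. Genes with similar differences between the groups have similar profiles over these libraries, and the sort itself separates the groups by the product of Abcb1a. A link between Fasl and Abcb1a was not tested. The profiles nearest to Gzma lay farther off, at 0.43 to 0.50: Tacc3, 2700094K13Rik, Hist2h2bb, Aurka and Lgals1. Tacc3 averaged 20.6 ± 2.58 CPM over the Mdr1+ libraries and 80.2 ± 30.7 CPM over the Mdr1- libraries (SD, n = 3 per group).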

How the data were processed

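Total RNA was measured by sequencing in 6 libraries (stranded kit, per the labels' protocols), grouped and numbered by the sample titles. The authors deposited raw counts per gene symbol; The submitters' processing notes name TopHat, HTSeq, DESeq2 and mm9; the sources used here give no version, annotation or strand setting. Reads without a unique position were 67.0% to 73.2% of all entries in the 4 libraries with that class. They were not counted in genes, and rows that name no gene stayed out of library sizes and tests.

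The counts of replicate 3 stand in case-insensitive name order, unlike the gene column, and were moved to those names. Rank correlations with replicates 1 and 2 were then 0.926 to 0.962, against 0.424 to 0.460 as deposited. In windows of 51 rows around each member they were 0.83 to 0.99, and -0.15 to 0.54 with the order shifted by 1 row. This departs from using the counts as deposited.

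Tests used edgeR 4.0.16 in R 4.3.3 (TMM, filterByExpr, robust quasi-likelihood F test, group only, 10897 genes tested, Benjamini-Hochberg over all of them, threshold 0.05). CPM are TMM-scaled, fold changes are Mdr1+ over Mdr1-, and standard errors are the fold change over the root of F. Counting intervals (95%, exact Poisson) and the floor of 3 counts cover counting error only. Libraries with the same number deviated together (correlations 0.41, 0.57 and 0.21, each above 0.1). The main fit was unpaired, and only the fit with the replicate block treated same-numbered libraries as pairs. This pairing rests on that check and the shared numbering, since no label states a pairing. Alternatives were other size factors, no filter, DESeq2 1.42.0, the replicate block, left-out libraries and the order as deposited. The fits were also run on simulated counts, which held no replicate effect and so cannot check the pairing. All members, and from each list at most 6 genes past the threshold in either fit, largest change first, are named with values; the genes nearest in profile are the 5 with the smallest root-mean-square difference (0.5 CPM added before the log). Srgn, Ctsc, Rab27a, Unc13d, Fas, Fadd, Tnfsf10, Tnf, Ifng and Tbx21 were added for their roles. Results of a few list and marker genes are not reported here. The members and lists were chosen with earlier results of these data known. The reference is GRCm38, not mm9, so coordinates are given for RefSeq promoters only.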

Additional observations from a re-analysis of the deposited data

How the results depend on the processing

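Counts of calls depended on the pairing, the tool and single libraries. With the replicate block 633 genes were higher and 716 lower in Mdr1+ cells, with 6 members higher and 1 lower and 14 and 8 genes of the lists higher and lower. The lists hold every member but Fasl, so in each fit the other members called are also counted among the list genes. Without the libraries of number 3 the same block gave 1131 and 1347 genes, 6 and 1 members and 25 and 13 list genes, and the 7 members were those of the block with all libraries; this fit was added after the data were seen. DESeq2 gave 103 and 381 genes, 3 and 1 members and 9 and 3 list genes. Without a filter on low counts 52 genes were higher, 2 members were higher and 1 lower (adjusted p = 0.0429 for Ctsw and 0.0319 for Gzma), and 1 list gene was lower. With replicate 3 as deposited 0 genes were higher and 0 lower in edgeR (8 and 100 at an unadjusted p under 0.05), with 0 members and 0 list genes higher; Prf1 (-0.12) and Gzmb (0.01) then changed sign. Leaving out 1 library or 1 replicate number gave 0 to 15 genes higher, 0 to 196 lower, 0 to 1 members higher and 0 to 3 list genes higher; both counts of genes were 0 without replicate 3 (237 higher and 667 lower at an unadjusted p under 0.05). Fasl ranged from 1.33 to 1.64 in these fits. Gzmb ranged from -0.22 to 0.05, with 0.05 without the Mdr1+ library of replicate 3, 0.04 without replicate 3 and 0.03 with the block and without number 3. Prf1, Gzma, Gzmk, Ctsw, Nkg7 and Serpinb9 kept their sign when libraries were left out. At 2220691 counts in the shallowest library, levels of Gzma and Gzmc rest on few counts.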
